A study of Mus musculus with 6 samples.

Results

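The genes described here encode the proteins of the cytosolic ribosome. They were found by name in the array's probe-to-gene table, as genes whose symbol starts with Rpl or Rps followed by a number, or is Rpsa, Rplp0, Rplp1 or Rplp2, without the Rps6k kinases and the symbols of pseudogenes. The rule gave 50 genes of the 18193 genes that have a probe set with 1 gene symbol, and 106 probe sets of 45037. Of these genes, 26 carry a large subunit symbol (Rpl or Rplp) and 24 a small subunit symbol (Rps or Rpsa). The naming rule uses no measured value, though the brightest probe set stands for each gene. None of the genes was lost to an intensity filter, so that all 50 were tested. By name and RefSeq annotation the label holds for all but 2 of them, though Rpl7l1, a paralog of Rpl7, is linked to ribosome assembly. Rps19bp1 is by its name a binding protein of Rps19 and not a ribosomal protein, and RefSeq lists Rps4l as a transcribed pseudogene, a close copy of Rps4x whose signal the probes may not separate from it.

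The samples were 3 clones of mouse embryonic stem (ES) cells, A3, A4 and A5, each measured on 1 Affymetrix mouse whole-genome expression array in each of 2 states. All 6 cultures carried the human coding sequence of GTF2IRD2 with a FLAG tag at the ROSA26 locus, behind a promoter that tetracycline silences. The paper states that the longest annotated form was cloned. The GTF2IRD2 insert it prints is far shorter than those it prints for the related GTF2I and GTF2IRD1, so the transgene may not be the full factor. The uninduced group (n = 3, 0 hours) was grown with tetracycline, and the induced group (n = 3, 24 hours) without it. The groups shared the transgene and the clones and differed in tetracycline and its effect on the promoter. They also differed in time, since no array came from a culture kept in tetracycline for the 24 hours. Each clone came from 1 colony, and a clone's deviation cannot be told apart from that of its 2 cultures and arrays. The questions were whether the messenger RNAs of the ribosome changed with induction of the transgene, and how far the clones differed in them. The array has 1 probe set for mouse Gtf2ird2, with 6.33, 6.04 and 6.36 uninduced and 6.38, 6.51 and 6.37 induced, a difference of 0.18 with a standard error of 0.10. It was designed on the mouse gene and is no check of the human transgene. In the paper's RT-PCR of the same 3 clones, the transgene message was higher at 24 hours than at 0 hours in each.

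A ribosome holds 1 copy of most of its proteins, and the cell makes them in matched amounts. Their messenger RNAs are short, stable and among the most abundant of any growing cell. They begin with a C followed by a run of pyrimidines, the 5-prime terminal oligopyrimidine (TOP) motif, through which mTOR and Larp1 control their translation, so that output can change while the message level does not. Several of the proteins have a paralog expressed in few tissues, such as Rpl39l and Rpl3l, and these can stand in for the common form.

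The start of the gene is shown because the TOP motif lies there, and the naming rule did not use it. Whether the annotated start is the one used in these cells was not tested. Of the 50 genes, 44 matched the RefSeq table of promoters (assembly GRCm38.p6), each with 250 bases before and 50 after the annotated start. In 8 of them (18.2%) the annotated start was a C that opened a run of at least 5 C or T, against 3.01% of all genes in the table. A run of that length opened by a C within 5 bases of the start was found in 20 (45.5%) against 21.2%. The 8 with a run at the annotated start follow, 10 bases before the start and 20 from it, in transcript direction, with the run in capitals.
Rpl35, chr2:39005112-39005141, minus strand: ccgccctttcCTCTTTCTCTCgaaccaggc
Rps10, chr17:27635225-27635254, minus strand: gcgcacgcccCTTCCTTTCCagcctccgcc
Rps18, chr17:33955646-33955675, minus strand: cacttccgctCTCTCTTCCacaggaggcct
Rps6, chr4:86857348-86857377, minus strand: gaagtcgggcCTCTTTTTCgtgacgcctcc
Rpl38, chr11:114668570-114668599, plus strand: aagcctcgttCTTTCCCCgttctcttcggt
Rps27, chr3:90213629-90213658, minus strand: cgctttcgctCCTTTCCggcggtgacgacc
Rpl14, chr9:120571507-120571536, plus strand: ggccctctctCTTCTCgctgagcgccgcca
Rplp2, chr7:141447641-141447670, plus strand: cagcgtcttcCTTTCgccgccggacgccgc
The runs were 11 bases long in Rpl35, 10 in Rps10, 9 in Rps18 and Rps6, 8 in Rpl38, 7 in Rps27, 6 in Rpl14 and 5 in Rplp2.

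The starts of 3 paralogs are shown because the clone comparison turned on Rpl39l and Rpl22l1, and Rps27l is the paralog of Rps27. None opens with such a run at the annotated base, like most of the 44 genes, and capitals are therefore absent. Rpl22l1, and Rps27l at 1 of its annotated starts, are among the 20 with a run within 5 bases.
Rps27l, chr9:66946076-66946105, plus strand: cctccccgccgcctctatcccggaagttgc
Rpl22l1, chr3:28805498-28805527, plus strand: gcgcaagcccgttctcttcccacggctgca
Rpl39l, chr16:10170218-10170247, plus strand: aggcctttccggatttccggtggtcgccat
Within the 300-base windows, searched on both strands, CTTCCGG (the core bound by ETS factors such as GABP) was present in 21 of the 44 promoters (47.7%) against 9.93% of all genes. GGGCGG, bound by Sp1, was present in 26 (59.1%) against 38.2%. AAGATGGC, bound by YY1, was present in 4 (9.09%) against 3.19%, and TATAAA in 6 (13.6%) against 15.7%. These matches describe the letters of the windows and are not binding sites measured in these cells.

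The messages of the ribosomal proteins stood at the top of the array. On the log2 RMA scale, where the median of an array lay between 5.03 and 5.06 and the brightest probe set of any array between 14.14 and 14.19, 34 of the 50 genes had a mean of at least 13 over the 6 arrays. The background was 0.495% of all probe sets and 80 of the 18193 genes, so that these 34 made up 42.5% of all genes at that level. A further 8 genes lay between 9 and 13 and 8 below 9. The median over the 50 genes was 13.52 and 13.53 in uninduced and induced A3, 13.55 and 13.54 in A4, and 13.53 and 13.52 in A5. Probe sets differ in brightness for the same amount of RNA, and signals this close to the ceiling of the array compress differences, so the order of genes by level describes the probe sets and not the amounts of RNA.

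**Figure D1:**
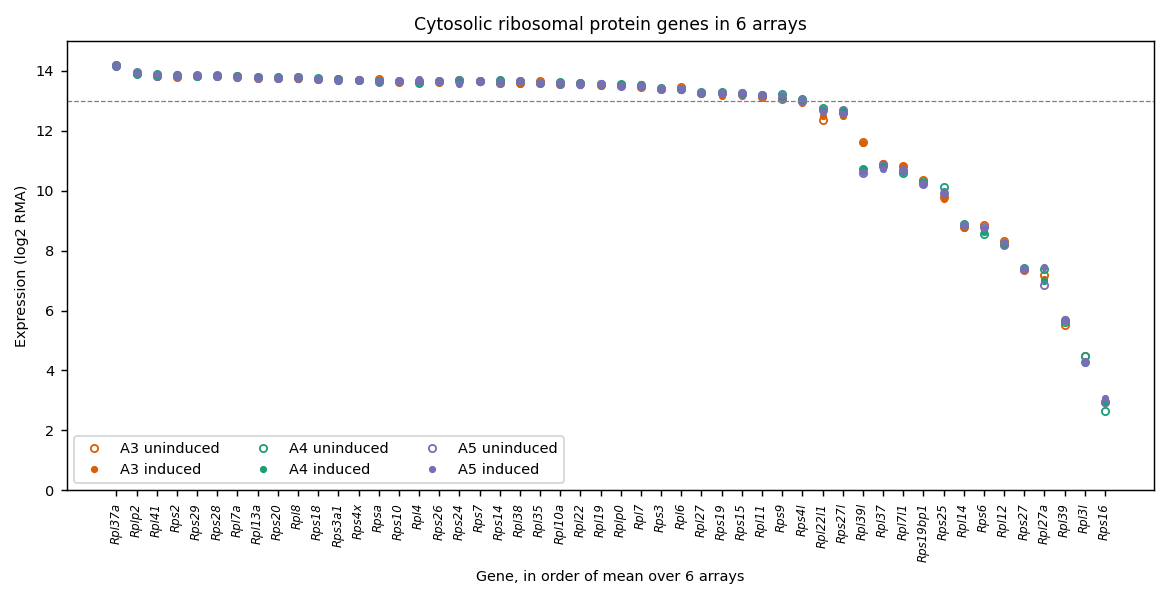
Log2 RMA level of each of the 50 ribosomal protein genes (brightest probe set, in order of the mean) in each of the 6 arrays, with open points for uninduced, filled points for induced, a colour per clone, and a dashed line at 13. Of these genes, 34 have a mean at 13 or above and 8 below 9, and the points of a gene mostly cover each other, except in Rpl39l, where the A3 points stand higher.

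The brightest was Rpl37a, a large subunit protein, with 14.19, 14.18 and 14.15 in uninduced A3, A4 and A5 and 14.15, 14.14 and 14.19 in the induced arrays. The same probe set had the highest mean of all 45037. It was followed by Rplp2, an acidic protein of the stalk that recruits elongation factors, with a mean of 13.92 and rank 9 among all probe sets. Rpl41, the smallest ribosomal protein, had 13.85. Rps2, a small subunit protein near the messenger RNA entry channel, had 13.84, and Rps29, a small zinc-binding protein of the same subunit, had 13.83. These 4 ranked between 9 and 20 of all probe sets. The means of Rpl41, Rps2 and Rps29 differed by less than their SD over arrays, while the steps from Rpl37a to Rplp2 and from Rplp2 to Rpl41 were larger than it. Among the 100 brightest probe sets of the array, 32 belonged to the 50 genes.

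The bright group held both subunits. From the large subunit it also included Rpl7a, Rpl13a, Rpl8, Rpl4, Rpl38, Rpl35, Rpl10a, Rpl22, Rpl19, Rpl7, Rpl6, Rpl27, Rpl11 and the stalk base Rplp0, with means from 13.80 in Rpl7a to 13.18 in Rpl11. From the small subunit it also included Rps28, Rps20, Rps18, Rps3a1, Rps4x, Rpsa, Rps10, Rps26, Rps24, Rps7, Rps14, Rps3, Rps19, Rps15 and Rps9, from 13.82 in Rps28 to 13.13 in Rps9. The 8 genes between 9 and 13 were mostly paralogs and accessory genes, with Rps4l, Rpl22l1 (12.61), Rps27l (12.60), Rpl39l (10.99), Rpl7l1 (10.70) and Rps19bp1 (10.26), beside the common forms Rpl37 (10.84) and Rps25 (9.90). Below 9 lay Rpl14, Rps6, the target of the S6 kinases (8.71), Rpl12 of the stalk base (8.23), and 5 genes more.

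At the low end were these 5 genes, with means from 2.92 to 7.38. Rps16, a small subunit protein, had a mean of 2.92 and single values of 2.94, 2.64 and 2.96 in the uninduced and 2.93, 2.94 and 3.08 in the induced arrays. Rpl3l, the form of Rpl3 found in striated muscle, had 4.50, 4.47 and 4.27 in the uninduced and 4.29, 4.30 and 4.27 in the induced arrays. Both lay below 5, under the median of the array. Rpl39, a small protein of the exit tunnel, had a mean of 5.65, Rpl27a 7.15 and Rps27 7.38.

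Brighter probe sets that also carry other symbols exist for 4 of these genes. Rps16 is among 3 symbols of probe sets with means of 13.44 and 13.91, and Rpl39 among 2 symbols of a probe set with 13.88. Rpl27a shares a probe set at 13.77 and Rps27 one at 13.48. The low values were those of the probe sets with 1 symbol. In all, a further 110 probe sets carry several symbols of which at least 1 is of this family, and these had a median level of 13.36, with 72 of the 110 at 13 or above. They stood for 46 family symbols, of which 31 have no probe set of their own and are outside the 50 genes, Rpl3, Rpl5, Rpl10 and Rps13 among them. Their values cannot be assigned to 1 gene. Disagreement was also wide within a gene. Of the 24 genes with several probe sets, 14 had probe sets more than 3 apart, and the 6 of Rps18, a small subunit protein, spanned 11.1. Levels below 13 in this family were thus not read as low expression.

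The levels hardly varied between arrays. The median SD of a gene over the 6 arrays was 0.0330 on the log2 scale, against 0.109 over all probe sets, and 29 of the 50 genes kept all 6 arrays within 0.1 of each other. Bright probe sets as a whole had small spreads. The 223 at 13 or above had a median SD of 0.0306, but 57 of them were probe sets of the 50 genes and 72 carried a family symbol among several. They were thus largely the family itself. The 34 genes at that level had a median SD of 0.0273. The largest range over arrays was 0.767 among the 223 probe sets and 0.162 among the 34 genes. Rpl22 is an example, an RNA-binding protein of the large subunit, with 13.59, 13.58 and 13.55 in the uninduced and 13.56, 13.52 and 13.53 in the induced arrays. Its 6 values lay within 0.07.

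**Figure D2:**
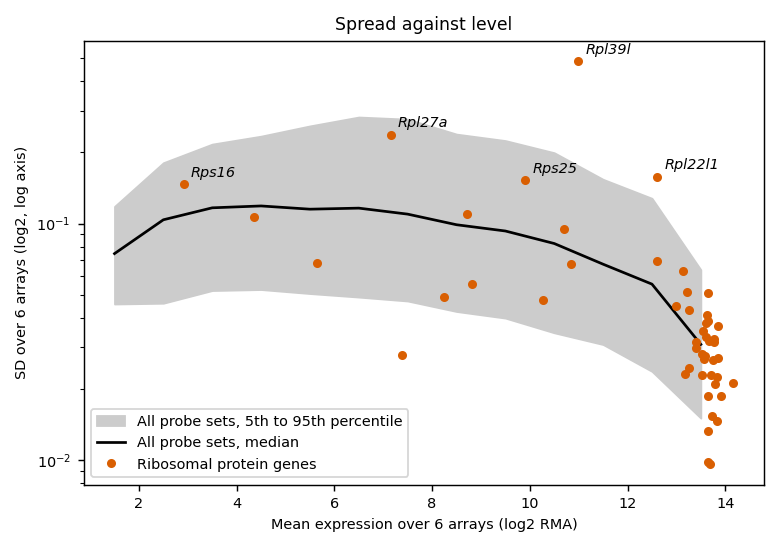
SD over the 6 arrays (log axis) against mean log2 RMA level for the 50 ribosomal protein genes (points), with the median (line) and the 5th to 95th percentile (band) of all probe sets in bins of level. Most of the genes lie in a cluster at 13 or above with small SDs, and the paralogs Rpl39l and Rpl22l1 lie above the band.

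The array's control probe sets measured 18S ribosomal RNA, the RNA of the small subunit. It varied far more than the messages of the ribosomal proteins did. The mean of the 3 probe sets was 10.10, 7.42 and 11.57 in uninduced A3, A4 and A5 and 8.80, 8.53 and 7.76 in the induced arrays. The groups overlapped, and the induced array was the higher one in A4 and the lower one in A3 and A5. The mean was 9.70 ± 2.10 (SD, n = 3) uninduced and 8.36 ± 0.54 (SD, n = 3) induced. The difference of -1.34 had an exact two-sided permutation p of 0.4, where the smallest that 3 arrays against 3 allow is 0.1. Uninduced A5 weighed most in it, and without both A5 arrays the difference was -0.0988. Ribosomal RNA carries no poly(A) tail, and how much of it enters a labelled sample also depends on the priming. The hybridization spikes, added in fixed amounts, were 10.06 ± 0.02 uninduced and 10.14 ± 0.08 induced (SD, n = 3 each, exact permutation p = 0.1).

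**Figure D3:**
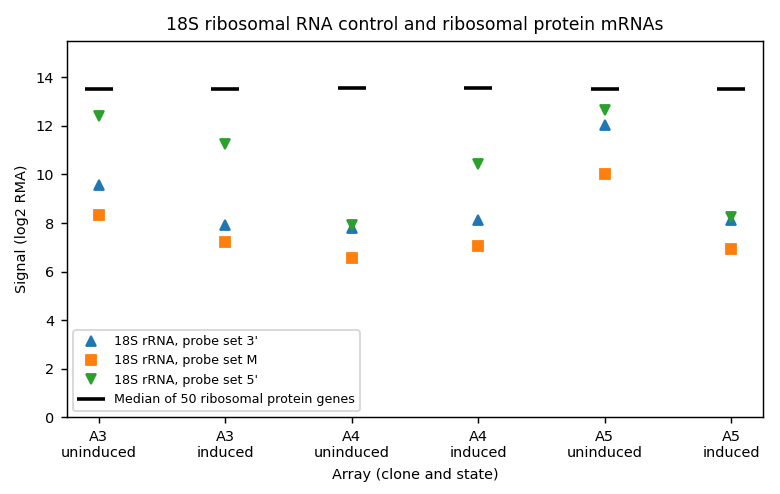
Log2 RMA signal of the 3 control probe sets for 18S ribosomal RNA (3-prime, middle and 5-prime, by marker) in each of the 6 arrays, with the median of the 50 ribosomal protein genes as a bar. The mean of the 3 18S probe sets runs from 7.42 to 11.57, while all 6 bars lie between 13.52 and 13.55.

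With induction of GTF2IRD2, 0 of the 50 genes were called higher and 0 lower (limma, Benjamini-Hochberg adjusted p under 0.05). The background was 0% in each direction, since limma called none of the 45037 probe sets. At an unadjusted p under 0.05, limma gave 0 of the 50 genes against a background of 3.12%, and the methods' t-test gave 3, Rpl8, Rps4x and Rps7 (background 3.73%), all lost on adjustment. The smallest adjusted p among the 50 was 1.00. The mean difference, induced minus uninduced, had a median of -0.0086 over the genes and of -0.0037 over all probe sets. It was positive for 19 genes and negative for 31, against 48.2% positive over all probe sets. In bulk RNA of this kind, fewer cells of a type and less RNA per cell cannot be told apart, and the cultures, 1 per clone and state, are all that the p-values draw their spread from.

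The intervals of these differences were narrow on the scale of the signal. In bright genes the shared spread set most of their width. Rps4x, with SDs of 0.003 uninduced and 0.008 induced, had a half-width of 0.14. The median half-width of the 95% interval was 0.15, and for 49 of the 50 genes the interval excluded a 1.5-fold change of the signal in either direction, as it did for 98.1% of all probe sets. For the 34 genes near the ceiling this bounds a compressed signal and not the change in RNA. The exception was Rpl39l, whose half-width was 0.72 in this fit without pairing. Its standard error was 0.31 there and 0.068 in the fit with the clone as a block. In size, 44 of the 50 differences (88%) were under 0.05, against 43.7% over all probe sets. Of those at 13 or above, most of which carry a family symbol, 97.3% were under 0.05. Both subunits gave the same picture. The 26 large subunit symbols had a median difference of -0.0071, with 10 positive and 16 negative, and the 24 small subunit symbols had -0.0087, with 9 positive and 15 negative.

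The clones gave small medians of differing sign. In A3 the median difference of the 50 genes was -0.020, in A4 it was -0.011 and for A5 it was 0.013, where over all probe sets it was -0.0087, -0.0021 and 1.33e-05. With 1 pair of arrays per clone, a difference between clones in the response to induction could not be tested. The largest disagreement was in Rpl27a, a large subunit protein picked after its values were seen. Its differences were -0.13 (A3), -0.40 (A4) and 0.61 (A5).

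Of the 50 genes, 5 were higher in the induced array of every clone (background 12.2%). They were Rpl39 (0.09), Rps2 (0.03), Rps14 of the platform (0.03), Rps4x (0.01), whose gene is X-linked, and Rpl7l1 (0.01), a paralog of Rpl7 linked to ribosome assembly. The direction of Rpl7l1 turned when single arrays were left out, with values from -0.042 to 0.070. Rpl39 had 5.53, 5.63 and 5.67 uninduced and 5.68, 5.71 and 5.70 induced. Its mean was 5.61 ± 0.07 uninduced and 5.70 ± 0.01 induced (SD, n = 3). Rps4x had 13.68, 13.69 and 13.69 uninduced and 13.70, 13.70 and 13.71 induced. In Rpl39 and Rps4x all 3 induced arrays lay above all 3 uninduced ones (background 3.35%), yet the difference in Rpl39 was little more than its standard error of 0.07, and that in Rps4x was 0.01.

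Another 8 genes were lower in the induced array of every clone (background 13.7%). They were Rpl3l (-0.13), Rpl8 (-0.04), a protein close to the peptidyl transferase centre, Rps24 (-0.04), Rps19 (-0.04), Rps7 (-0.02) and Rps29 (-0.02), all mutated in Diamond-Blackfan anaemia, Rpl22 (-0.04), and Rpl38 (-0.04), whose loss shortens the mouse tail. Rps24 turned to 0.024 without the _x_at and _s_at probe sets, and without single arrays Rps24 came to -0.0013 and Rps19 to -0.0035 at the least. Rpl8 had 13.75, 13.79 and 13.78 uninduced and 13.72, 13.74 and 13.73 induced. Rps7 had 13.65, 13.64 and 13.65 uninduced and 13.63, 13.64 and 13.62 induced. In these 2 genes all induced arrays lay below all uninduced ones (background 4.61%). For Rpl8 the means were 13.77 ± 0.02 and 13.73 ± 0.01 (SD, n = 3), a difference of -0.04 with a standard error of 0.06 in the limma fit. The 13 genes of 1 sign in all clones made up 26% of the 50, against 25.9% of all probe sets.

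**Figure D4:**
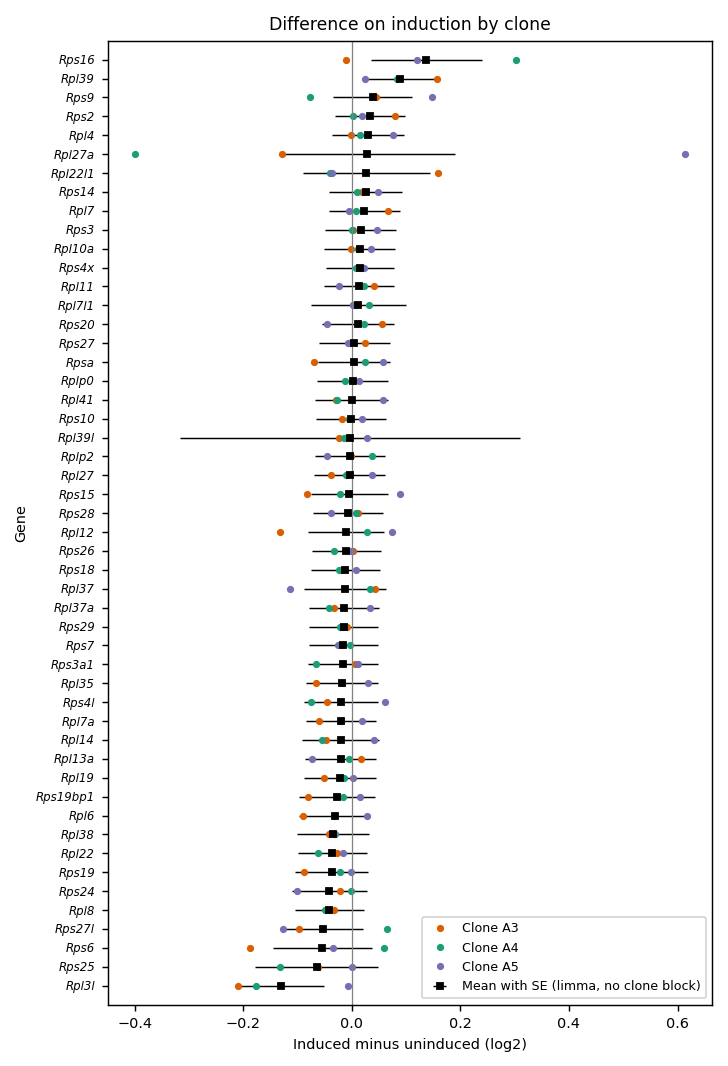
Induced minus uninduced on the log2 RMA scale for each of the 50 ribosomal protein genes, with a coloured point per clone and a square for the mean with its limma standard error. Of the means, 44 lie within 0.05 of 0, and the clones lie farthest apart in Rpl27a.

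The wider ribosome pathway was read from lists of genes. None of their members was called with induction in limma, whose background was 0%. Fau, which encodes Rps30 fused to a ubiquitin-like protein, had a mean level of 13.04 and a difference of -0.02 with a standard error of 0.07. Of 15 translation factors whose messages carry the TOP motif, 14 were measured, and they had a median difference of 0.012 with 10 positive and 4 negative. The examples with the smallest p were Eef2, the translocation factor (-0.04), Eif4b, a cofactor of the helicase that opens 5-prime ends (-0.04), and Eif3h, a subunit of initiation factor 3 (0.04). Of 13 genes that control TOP translation through mTOR and Larp1, 12 were measured, with a median of -0.016, 6 positive and 6 negative. Mtor had -0.16 ± 0.12, its complex 1 scaffold Rptor -0.12 ± 0.07 and its complex 2 scaffold Rictor -0.10 ± 0.07 (difference ± standard error).

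The machinery that makes ribosomes gave like values. All 20 listed genes of RNA polymerase I and its factors were measured, with a median of -0.034, 8 positive and 12 negative. Of 54 ribosome assembly factors 53 were measured, with a median of -0.010, 20 positive and 33 negative. Mdn1, the large ATPase that strips factors from the large subunit precursor, had -0.19 ± 0.10, and Utp20, of the small subunit precursor, had -0.15 ± 0.10. The S6 kinases and their relatives, of which 6 of 10 were measured and which phosphorylate Rps6 among other targets, had a median of -0.0070 with 3 on each side. Of 9 genes of ribosome quality control and the p53 response to ribosome stress 7 were measured, with a median of 0.0016. Mdm2, which Rpl11 and Rpl5 bind, had -0.09 and the p53 target Cdkn1a 0.07. Rpl11 itself had 0.01. Within the ribosome, 9 measured genes of 15 mutated in Diamond-Blackfan anaemia had a median of -0.010 with 1 positive and 8 negative. Over all 50 genes the median was -0.0086, with 19 positive and 31 negative. The median was -0.018 for 5 of 9 proteins at the exit tunnel and -0.0033 for 3 of 4 P stalk proteins.

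Between clones, 1 of the 50 ribosomal protein genes was called, a share near the 2.18% of all probe sets. Rpl39l, the paralog of Rpl39 best known from male germ cells, had 11.62 and 11.60 in uninduced and induced A3, 10.74 and 10.72 in A4 and 10.60 and 10.63 in A5. Both A3 arrays stood above the other 4, and the states of a clone differed by at most 0.03. A3 was higher than A4 by 0.88 ± 0.08 (SE, 1.84-fold, limma adjusted p = 0.0023) and higher than A5 by 0.99 ± 0.08 (SE, 1.99-fold, limma adjusted p = 0.0022). It was the only one of the 50 genes called by the limma F-test of the clone term (adjusted p = 0.0024), where 2.18% of all probe sets were called. It was likewise the only one called in A3 against A4 (background 1.5% higher and 1.44% lower) and in A3 against A5 (0.904% and 0.777%). In A4 against A5 no member was called (0.0355% and 0.0155%), with a smallest adjusted p of 0.692. Rpl39l has 1 probe set here. Its partner Rpl39 had clone means within 0.078 of each other and was not called (limma F-test, adjusted p = 0.852), by a probe set whose level was near the median of the array.

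**Figure D5:**
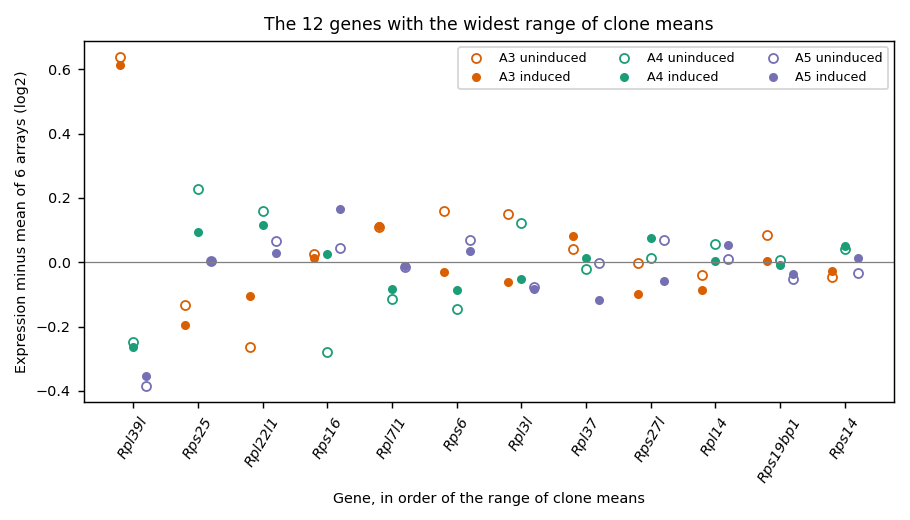
Log2 RMA level minus the mean of the 6 arrays for the 12 ribosomal protein genes with the widest range of clone means, with a colour per clone, open points for uninduced and filled points for induced arrays. In Rpl39l both A3 points stand far above the other 4, and in Rps25 and Rpl22l1 both A3 points lie below them.

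A second paralog leaned the other way without passing the test. Rpl22l1, the paralog of the RNA-binding protein Rpl22, had 12.34 and 12.50 in A3, 12.77 and 12.73 in A4 and 12.67 and 12.64 in A5. Both A3 arrays lay below the other 4, by 0.32 ± 0.09 against A4 (SE, limma adjusted p = 0.116) and by 0.23 ± 0.09 against A5 (SE, limma adjusted p = 0.326). The 3 probe sets of Rpl22 did not move together. The 2 brighter ones, at 13.56 and 12.69, were not called by clone (limma F-test, adjusted p = 0.975 and 0.938). The dimmest, at 9.35 and singled out after its values were seen, had 9.07 and 8.95 in A3, 9.54 and 9.54 in A4 and 9.43 and 9.57 in A5, and was called (limma F-test, adjusted p = 0.039). It was 1 of 2 called among the 106 probe sets, the other being that of Rpl39l.

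The remaining paralogs differed less between clones. Rpl7l1 had clone means of 10.82, 10.61 and 10.69 in A3, A4 and A5 (limma F-test, adjusted p = 0.421). Rps27l, a paralog of Rps27 that p53 induces, had 12.60, 12.62 and 12.67 uninduced and 12.50, 12.68 and 12.55 induced. Rps4l had 12.98, 13.06 and 12.98 uninduced and 12.94, 12.98 and 13.04 induced. Rps25, a small subunit protein that several viral messages need and that was picked after its values were seen, had clone means of 9.74, 10.07 and 9.91 for A3, A4 and A5. The A3 and A4 values of Rps25 did not overlap, and the difference of -0.33 did not pass (limma adjusted p = 0.0927).

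The other genes of the family differed little between clones, as did bright probe sets in general. The range of the 3 clone means was under 0.1 in 42 of the 50 genes, with a median of 0.055 against 0.145 over all probe sets. At 13 or above the median was 0.036 for the genes of the family and 0.039 for all probe sets, most of which carry a family symbol. Both A3 arrays lay above the other 4 in 3 genes (background 12.1%) and below them in 10 (13.5%). Both A4 arrays lay above in 7 (10%) and below in 3 (9.65%), and both A5 arrays above in 3 (6.69%) and below in 5 (5.8%). The median difference of the 50 genes was -0.022 in A3 against A4, which turned to 0.0023 when each array was centred on its median, -0.011 in A3 against A5 and 0.0096 in A4 against A5. Near the ceiling no clone difference was called, with 0 of the 223 probe sets at 13 or above. The test could hardly call one there. With the spread that limma shares over probe sets, the standard error of a clone pair was 0.082 in Rpl38 and 0.091 in Rps9. These exceeded the median range of clone means of 0.036, so the 0 does not show that the clones agreed. In the pathway lists, the clone F-test called 1 of 20 RNA polymerase I genes and 1 of 53 assembly factors (background 2.18%). They were Taf1d (limma F-test, adjusted p = 0.039), with clone means of 9.11, 8.75 and 9.33, and the kinase Riok2 (limma F-test, adjusted p = 0.026), with 9.20, 9.70 and 9.80.

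Other measures set A3 apart together with Rpl39l, the spikes least clearly. The poly(A) spikes added before labelling were 6.58 uninduced and 6.91 induced in A3 and between 6.06 and 6.57 in the other 4 arrays. They hardly separated A3, since induced A5 had 6.57 and the A3 arrays lay farther from each other. All 12 ES cell markers were measured, at means between 9.83 and 13.9 as the cell type label has it, and their summed log2 level ran from 139.07 to 139.20 in A3 and from 139.40 to 139.91 elsewhere. Fgf4 alone of these was called by clone (background 2.18%), with means of 10.16, 9.65 and 9.69 for A3, A4 and A5. Of 6 measured trophoblast markers, 3 were called (background 2.18%), all lower in A3 (Tfap2c, Eomes and Plet1). The list summed to between 33.09 and 33.53 in A3 and between 35.36 and 36.67 elsewhere. The endoderm list, with 6 of 8 markers below 5, summed to between 36.17 and 36.59 in A3 and between 37.11 and 38.39 elsewhere, and the mesoderm list to between 25.28 and 25.33 against 26.37 to 26.77. In each of these 2 lists 1 marker was called by clone, Dab2 (clone means 4.99, 4.90 and 5.40, highest in A5) and again Eomes. The fibroblast list, with 5 of 8 markers below 5, overlapped at 35.72 to 36.36 and 35.87 to 36.28, and neither its markers nor the 6 of the neural list were called. Over all probe sets, both A3 arrays lay above the other 4 in 12.1% and below them in 13.5%. No marker of any list was listed at 0. The part of these differences in the Rpl39l result was not tested.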

How the data were processed

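The deposited values were log2 RMA summaries, 1 per probe set, that the authors made with the affy package of Bioconductor (background correction, quantile normalization between arrays, summarization); versions are not given in the sources used here. Quantile normalization gives all arrays the same distribution, so a change shared by most messages could not be seen. After 64 control probe sets were left out, 45037 probe sets were tested without an intensity filter in limma 3.58.1 (R 4.3.3), induced against uninduced on all 6 arrays, and by clone with induction as a covariate. P-values were two-sided and Benjamini-Hochberg adjusted over all probe sets, with a threshold of 0.05. Each gene was represented by its brightest probe set on average. The number of arrays limits the precision. Members, gene lists and tests were chosen with earlier results of these data known.

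Named genes were the paralogs, members past a threshold, members with 1 sign in all clones (up to 8 per direction), the 5 highest and 5 lowest levels, up to 3 per list with the smallest p, and ribosomal proteins under other symbols (Fau measured). Each clone gave 1 array per group, so arrays pair by clone. Deviations from the group means correlated within a clone (A3 0.524, A4 0.376, A5 0.210), and a fit with this block was an alternative. The t-test was run on the same values as the methods' t-test. Promoters were searched with Python 3.11.15. Calculations were tested on simulated data.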

Additional observations from a re-analysis of the deposited data

How the results depend on the processing

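With induction, 0 of the 50 genes were called in every alternative run, namely the replicate block (0 calls, smallest adjusted p 0.851), the t-test, a mean of at least 5, an intensity trend, centring, the mean of a gene's probe sets, probe sets without _x_at and _s_at, and leaving out arrays. Leaving out arrays moved the median difference between -0.0164 and 0.00052. Among single genes, Rps24 turned to 0.024 without _x_at and _s_at probe sets, and Rpl7l1 ran from -0.042 to 0.070 without single arrays. The clone F-test called 980 probe sets, 1885 under the filter on the mean, 2641 with the trend and 26 to 1427 without arrays, fewest without both A3 arrays. It called 1 ribosomal protein gene, 3 with the trend and 0 to 1 without arrays, 0 being without both A3 arrays. In A3 against A4, 1 gene was called, 3 with a mean of at least 5, 4 with the trend and 2 with the mean of probe sets, the additions being Rpl22l1, Rps25 and Rpl7l1. In A3 against A5, 2 were called with the trend. Rpl39l stayed called in both pairs in every alternative that kept both clones (0.87 to 0.90 and 0.97 to 1.02 without arrays). The median in A3 against A4 was -0.022, against -0.027 with a mean of at least 5, 0.0023 after centring, -0.017 with the mean of probe sets, -0.025 without _x_at and _s_at, and -0.027 to -0.019 without arrays. The 18S difference ran from -2.56 to -0.0988 without arrays, and was -1.76, -1.23 and -1.01 in single probe sets. The causes were not tested.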
